A study of Oryza sativa Japonica Group with 4 samples.

Results

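Ammonium transporters of the AMT1, AMT2 and AMT3 groups of rice are the subject here. They were taken by gene identifier as the 8 AMT genes to which the platform annotation links a probe set, out of 17905 genes with a probe set, and 10 probe sets read them. The roots came from hydroponically grown seedlings of the rice cultivar TNG67, 17 days of age, that were kept on solution lacking N after germination. All seedlings were then transferred, for 30 min, either to fresh solution lacking N (−N) or to solution containing 1.43 mM NH4NO3 (+N). Each group is represented by 2 biological replicates with 1 Affymetrix Rice Genome Array each. The sources do not tell whether the replicates were separate cultures, so p-values measure only the spread between these samples, which may be technical. In whole roots, fewer cells of a type and less RNA per cell cannot be told apart. NH4NO3 supplies ammonium and nitrate together, and their effects cannot be told apart in these groups.

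AMT proteins are membrane proteins through which ammonium enters cells. In plants, members of the AMT1 group provide most of the high-affinity ammonium uptake of roots. Rice, a crop of flooded soils in which ammonium is the prevailing form of N, is known for an *OsAMT1;2* mRNA that is made in roots and responds to ammonium, whereas *OsAMT1;1* (*AMT1-1* below) is also expressed in shoots. The AMT2 and AMT3 groups form another branch of the family. Inside the cell, glutamine synthetase joins ammonium to glutamate, and glutamate synthase regenerates glutamate from glutamine.

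The 8 genes are spread over 5 chromosomes. *OsAMT1;2* (LOC4330008) lies on chromosome 2 beside *OsAMT1;3* (LOC4330007), with 0 genes between them, and the gene table gives both the synonyms AMT1-2 and AMT1-3. *OsAMT1;3* has no linked probe set and was not analysed here, and whether its transcript binds the probe set of its neighbour was not tested. *AMT2-3* (LOC4327433) and *AMT2-2* (LOC4327434) on chromosome 1 have 2 genes between them. *AMT3-1* (LOC4324937) is also on chromosome 1, *AMT3-3* (LOC4329628) on chromosome 2, *AMT3-2* (LOC4334717) on chromosome 3, *AMT1-1* (LOC4336365) on chromosome 4 and *AMT2-1* (LOC4339064) on chromosome 5. The probe set of *AMT3-2* and the brighter probe set of *AMT3-1* are of the x type, in which some probes may also bind other transcripts.

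Levels are given as intensities, the brightness of a probe set on an array, and were not set against each other between probe sets. The arrays differed in scale, with a median intensity from 17.1 to 17.8 in replicate 1 and from 25.2 to 25.4 in replicate 2. Of 7 root markers 5 were measured, among them the silicon channel gene *LSI1* at 7224 to 9869, and their summed intensity was 7923 and 11535 in −N and 8927 and 9966 in +N. Of 7 leaf markers 2 were measured, and both gave signal in these roots, *CAB2R* (a chlorophyll-binding protein) at 7870 to 11216 and *RBCS-C* (the small subunit of Rubisco) at 304 to 1303. The value for *RBCS-C* is from the brightest of its 4 probe sets, which is of the x type. The others were dimmer, the dimmest at 5.69 to 6.89. The leaf sum was 8174 and 12519 in −N and 10222 and 11949 in +N. Neither list had a member at 0 or a member that was called. Each sum is mostly the signal of its brightest gene, *LSI1* or *CAB2R*.

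None of the 8 AMT genes passed the test after 30 min of NH4NO3. *OsAMT1;2* had the largest difference, 3.13-fold higher in +N than in −N roots, and *AMT2-1* was 1.37-fold higher. These were the 2 genes of the 8 in which both +N arrays lay above both −N arrays, a separation found in 9.23% of all genes. In the other 6 genes the groups overlapped. A call required a difference of 2-fold or more and an unadjusted p under 0.05 in limma, the cutoffs named in the study's methods. Among the AMT genes 0 were called higher and 0 lower, while 1.01% of all genes were called higher and 0.0223% lower. With 8 genes such a count is near the background. A p under 0.05 alone was reached by 0 of the 8 and by 2.2% of all genes, and the limma p adjusted over all probe sets was 1 for each of the 8. The median log2 fold change was 0.12 in the family and 0.02 over all genes.

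For *OsAMT1;2* the intensities were 265 (replicate 1) and 768 (replicate 2) in −N and 1507 and 1321 in +N. The −N array of replicate 1 was far below the others, and the +N arrays were close together. The log2 fold change was 1.65 ± 0.61 (SE, n = 2 arrays per group), with unadjusted p = 0.0661 in limma and a 95% interval from 0.876-fold to 11.2-fold. The ratio of +N to −N was 5.70 in replicate 1 and 1.72 in replicate 2. The −N arrays differed 2.90-fold and the +N arrays 0.877-fold (replicate 2 over replicate 1), so the size of the difference rested on which −N array was used. With the −N array of replicate 1 left out, the log2 fold change was 0.88 (unadjusted p = 0.0532), and without that of replicate 2 it was 2.42 (unadjusted p = 0.00494), which is a call. Those fits called 1.05% and 2.17% of all genes higher. An exact two-sided permutation test of 4 arrays in groups of 2 gives no p smaller than 0.333.

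**Figure D1:**
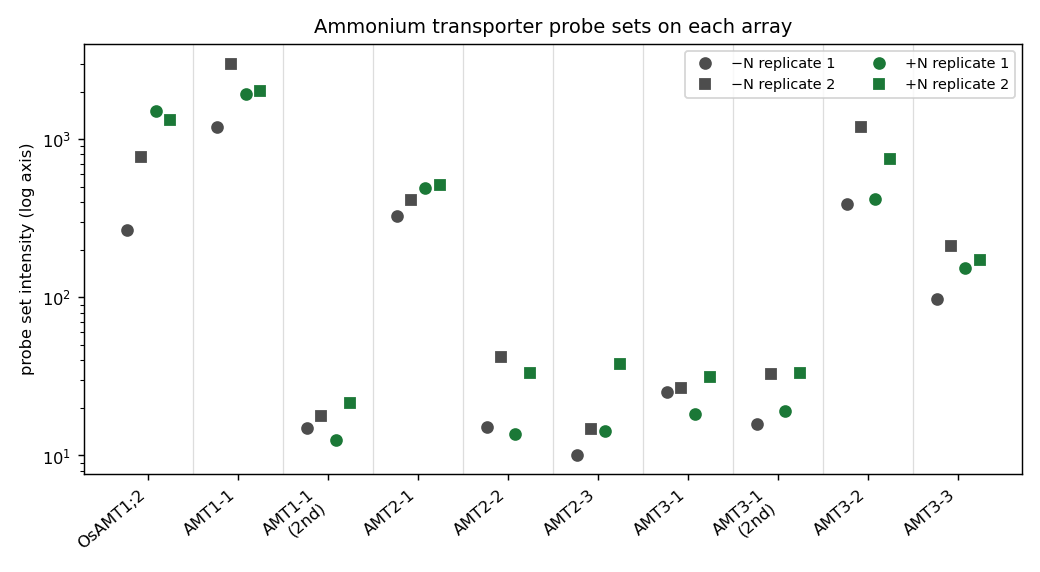
Intensity (log axis) of the AMT probe sets with a point for each array, circles for replicate 1, squares for replicate 2, grey for −N and green for +N. The label "2nd" marks the dimmer probe set of a gene. Both +N points lie above both −N points in *AMT2-1* and in the leftmost gene, whose −N point of replicate 1 is at 265 against 768 to 1507 for the others.

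The call of this gene changed with the scaling and the variance model. After median centring of the arrays its log2 fold change was 1.67 ± 0.41 (SE, unadjusted p = 0.00364 in limma), and 1.37% of all genes were called higher. After quantile normalization it was 1.59 (unadjusted p = 0.0353), with 1.06% of all genes called. It was called as well when dim probe sets were left out (unadjusted p = 0.0144, 1.37% of the genes kept) and with trend and robust moderation (unadjusted p = 0.0242, 1.16%), but not with an ordinary linear model (unadjusted p = 0.167, 0.653%). The adjusted limma p in these fits was between 0.991 and 1.

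**Figure D2:**
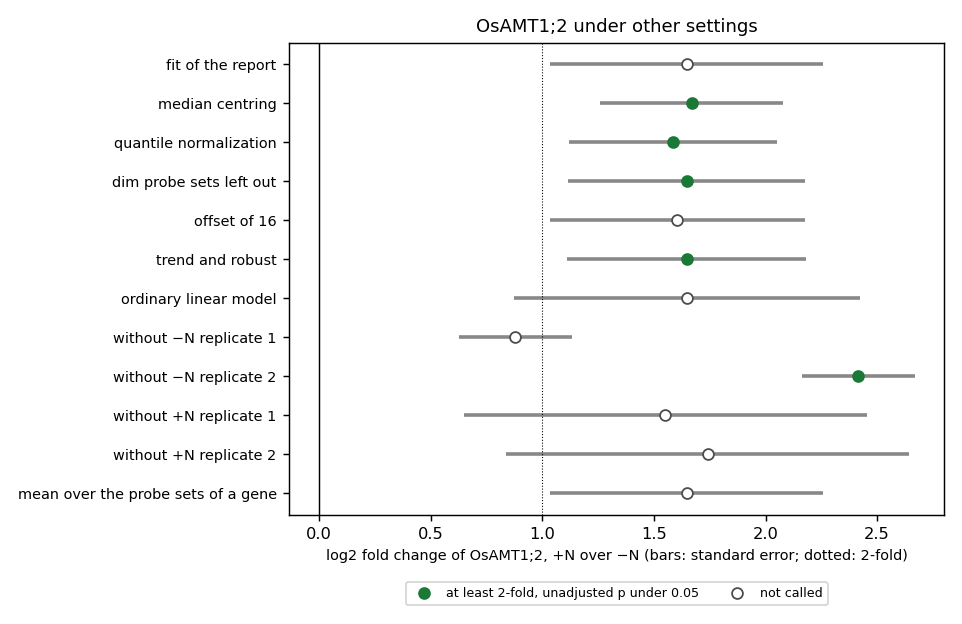
Log2 fold change (+N over −N) of *OsAMT1;2* as points, with standard errors as bars, in the fit described above and under other settings. The fits with a replicate block are not drawn. Filled points are calls, and the dotted line is 2-fold. The values run from 0.88 without the −N array of replicate 1 to 2.42 without that of replicate 2. All lie above 0, a sign that many of these settings could not change.

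*AMT1-1*, the other AMT1 gene on the array, had intensities of 1188 and 3005 in −N and of 1927 and 2026 in +N. Both +N values fell between the −N values. The log2 fold change was 0.06 ± 0.54 (SE, unadjusted p = 0.911 in limma) and the 95% interval, from 0.344-fold to 3.18-fold, leaves room for a difference in either direction. Replicate 1 had a +N to −N ratio of 1.62 and replicate 2 of 0.674. With the −N array of replicate 1 left out, the log2 fold change was -0.61, and without that of replicate 2 it was 0.73, neither of them a call. Its second probe set had low intensities, at 15.0 and 17.8 in −N and at 12.5 and 21.4 in +N, with overlapping groups (log2 fold change 0.00 ± 0.34, unadjusted p = 0.993).

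Both AMT1 genes were lower on the −N array of replicate 1 than on that of replicate 2, and their ratio within an array separated the groups. The *OsAMT1;2* signal was 0.223 and 0.256 times the *AMT1-1* signal on the −N arrays, and 0.782 and 0.652 times on the +N arrays. Probes differ in strength, so the value of this ratio has no meaning of its own, but its difference between arrays does, and it does not depend on the scale of an array. The ratio was 2.99-fold higher in +N, a log2 difference of 1.58, while the pooled SD within groups was 0.16 (n = 2). With any 1 array left out the log2 difference was between 1.45 and 1.71. The pair was chosen after the values were seen, and how many other pairs of genes separate the groups in this way was not computed, so the ratio is a description of these 4 arrays without a test. It does not say that *AMT1-1* stayed constant.

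The other 6 genes had +N to −N differences of 0.781-fold to 1.82-fold in their ratio to *AMT1-1*. *AMT2-3* was at the top of that range, with a log2 difference of 0.87 and a pooled SD of 0.78. *AMT3-3* kept closest to *AMT1-1*, with a log2 difference of 0.12 and a pooled SD of 0.13. Relative to the mean of the 7 other AMT genes of an array, *OsAMT1;2* was 2.84-fold higher in +N, a log2 difference of 1.51 with a pooled SD of 0.52. On this measure *AMT3-2* also separated the groups, with +N below (0.611-fold, log2 difference -0.71, pooled SD 0.39). The mean it was set against includes *OsAMT1;2*. In the remaining genes the groups overlapped.

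**Figure D3:**
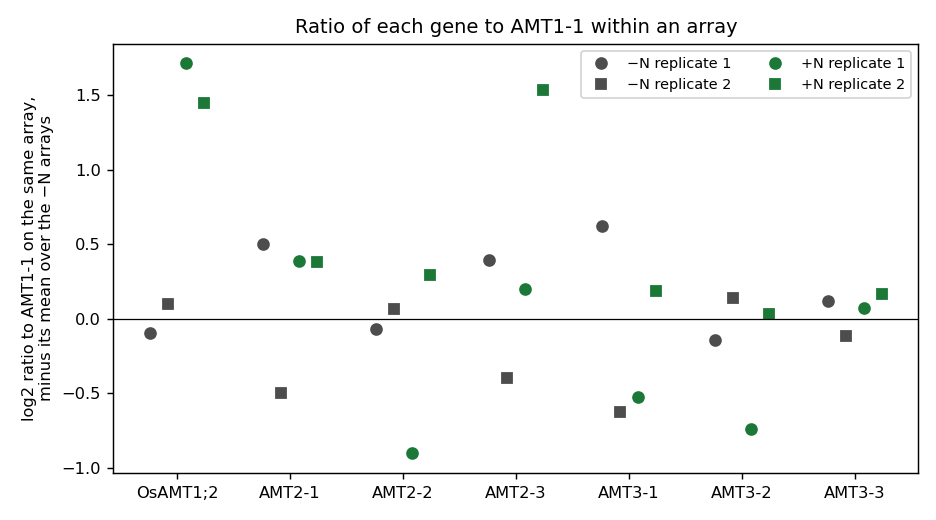
Log2 ratio of each AMT gene to *AMT1-1* on the same array, from which the mean of the −N arrays was subtracted, with a point for each array (grey −N, green +N, circles replicate 1, squares replicate 2). In the leftmost gene the +N points lie well above the −N points, a log2 difference of 1.58, and in *AMT3-3* all points are near 0.

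The AMT2 group held *AMT2-1*, with a narrow separation of the groups, and a pair of genes with low intensities. *AMT2-1*, whose protein transports ammonium when produced in yeast, had intensities of 326 and 412 in −N and of 489 and 512 in +N. Both +N values exceeded both −N values by a small margin, with a log2 ratio of 0.59 in replicate 1 and 0.31 in replicate 2. The log2 fold change was 0.45 ± 0.19 (SE, unadjusted p = 0.0923 in limma), and the 95% interval ran from 0.915-fold to 2.04-fold. Such a separation with +N above was found in 2 of the 8 AMT genes and in 9.23% of all genes, and with +N below in 0 of the 8 and in 5.12% of all genes.

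*AMT2-3* had intensities of 10.1 and 14.8 in −N and of 14.3 and 38.1 in +N. The +N array of replicate 2 stood above the rest, and the groups overlapped narrowly. The log2 fold change was 0.93 ± 0.60 (SE, unadjusted p = 0.209 in limma). After median centring it was 0.95 (unadjusted p = 0.0203), just under the 2-fold cutoff. Median centring and quantile normalization both removed the overlap, so that 3 of the 8 AMT genes were separated with +N above, as were 16.7% and 14% of all genes. Without the +N array of replicate 1 the gene was called, with a log2 fold change of 1.64 (unadjusted p = 0.0387) in a fit that called 1.03% of all genes higher. Without the +N array of replicate 2 it was 0.23 (unadjusted p = 0.609), and 0.603% of all genes were called.

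*AMT2-2*, 2 genes away from *AMT2-3*, had intensities of 15.1 and 41.9 in −N and of 13.7 and 33.1 in +N. Replicate 2 was above replicate 1 in both groups, by 2.77-fold and 2.41-fold, which was more than the groups differed in either replicate. It was the 1 AMT gene below −N in both replicates, at ratios of 0.907 and 0.790, and the log2 fold change was -0.24 ± 0.76 (SE, unadjusted p = 0.771 in limma).

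The AMT3 genes had no common direction. *AMT3-2* had intensities of 389 and 1197 in −N and of 416 and 747 in +N. Here too replicate 2 was the higher in each group, and the log2 fold change, the lowest of the family, was -0.29 ± 0.72 (SE, unadjusted p = 0.709 in limma) with a 95% interval from 0.184-fold to 3.63-fold. *AMT3-3* had intensities of 97.6 and 210.2 in −N and of 154 and 173 in +N. As in *AMT1-1*, both +N values were between the −N values, and the log2 fold change was 0.18 ± 0.45 (SE, unadjusted p = 0.708).

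*AMT3-1* had low intensities on both of its probe sets, though above the limit of the filter on dim probe sets. The brighter gave 25.0 and 26.7 in −N and 18.3 and 31.5 in +N, a log2 fold change of -0.11 ± 0.34 (SE, unadjusted p = 0.769 in limma). The dimmer gave 15.8 and 32.9 in −N and 19.0 and 33.3 in +N, a log2 fold change of 0.14 ± 0.53 (SE, unadjusted p = 0.807). The probe sets differed in sign, and the groups overlapped on each.

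**Figure D4:**
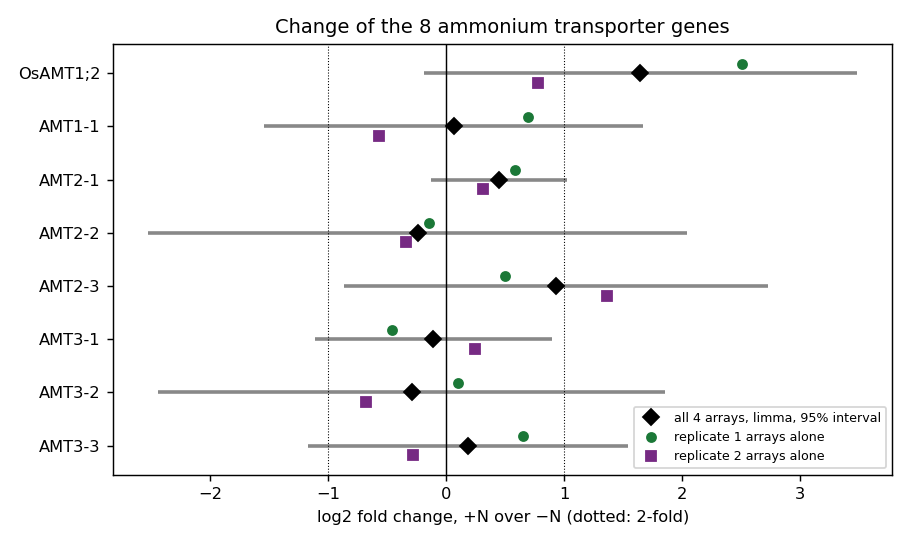
Log2 fold change (+N over −N) of the AMT genes, each by its brighter probe set. Diamonds and bars are the limma estimate with its 95% interval, green circles replicate 1 alone, purple squares replicate 2 alone, and the dotted lines 2-fold. All intervals include 0, and the highest estimate, 1.65, has an interval from -0.19 to 3.48.

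The replicates disagreed in direction for 4 of the 8 genes. *AMT1-1*, *AMT3-2* and *AMT3-3* were above −N in replicate 1 and below it in replicate 2, a pattern of 3 of 8 members and of 30.2% of all genes. *AMT3-1* had the opposite pattern. *OsAMT1;2*, *AMT2-1* and *AMT2-3* were above −N in both replicates, again 3 of 8, as were 28.7% of all genes. Both shares are near the background.

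**Figure D5:**
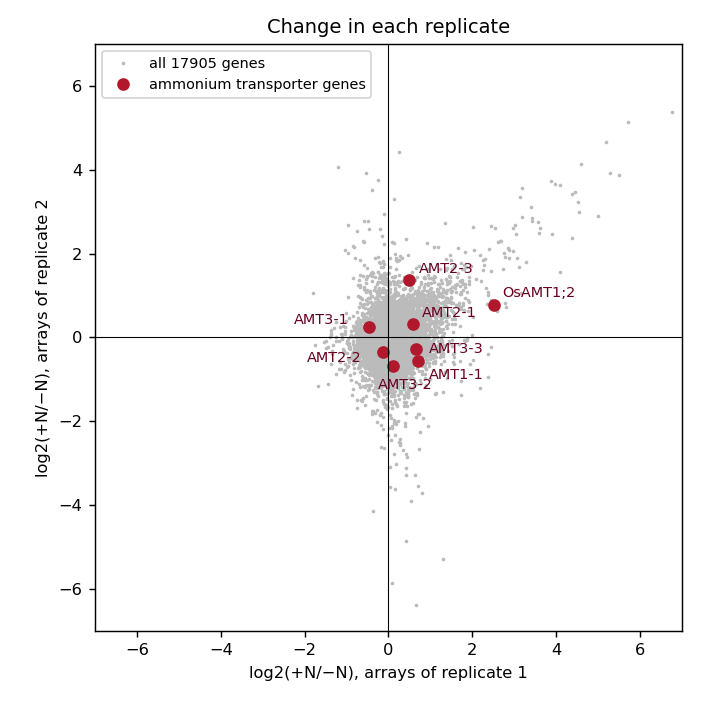
Log2 ratio of +N to −N in replicate 1 (horizontal) and replicate 2 (vertical) for all 17905 genes (grey) and the AMT genes (red). One AMT gene stands to the right of the family, at 2.51 and 0.78, and *AMT2-3* is the highest of the family in replicate 2, at 0.50 and 1.36.

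The spread within −N was wide in this family, though not in it alone. The −N array of replicate 2 exceeded that of replicate 1 by 2-fold or more in 5 of the 8 AMT genes and in 16.6% of all genes. It did so by 3.07-fold in *AMT3-2*, 2.77-fold in *AMT2-2*, 2.53-fold in *AMT1-1* and 2.15-fold in *AMT3-3*, beside the 2.90-fold given above. The median of this ratio was 2.33 in the family and 1.43 over all genes. It was 1.63 in the 9 measured genes for enzymes that use ammonium. The ratio was 3.99 in *NRT2.2* and 2.63 in *NIA1*, the nitrate genes given below for scale. All 8 AMT genes were read on the same −N arrays, so they are not separate observations of this spread. Between the +N arrays, replicate 2 was 2-fold or more above replicate 1 in 2 of the 8, *AMT2-2* and *AMT2-3*. This held for 5.77% of all genes, and the medians were 1.39 in the family and 1.31 over all genes. The −N array of replicate 1 had the lowest of the 4 values in 6 of the 8 genes, all but *AMT2-2* and *AMT3-1*, and the −N array of replicate 2 the highest in 4 of the 8. The share of all genes with either of these alone was not computed. Both at once held for 3 of the 8, near the 30.4% of all genes. Of the marker genes it held for 3 of 5 of the root list (*LSI1*, the silicon exporter gene *LSI2* and *PIN2*) and 2 of 2 of the leaf list, but not for *SCR* and *SHR1*, whose lowest value was on the +N array of replicate 1. The part of this in the AMT results was not tested.

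The enzymes that use ammonium after its uptake were read on the same arrays. Of 13 listed genes for glutamine synthetase, glutamate synthase, glutamate dehydrogenase and asparagine synthetase, 9 were measured, and in limma 0 were called higher and 0 lower, beside 1.01% and 0.0223% of all genes. With 9 genes such a count is near the background. Their median log2 fold change was -0.03. *GLN1-1* (cytosolic glutamine synthetase) had intensities of 5147 and 8144 in −N and of 5991 and 7415 in +N. *GLN1-2*, another cytosolic form, had 2645 and 5442 in −N and 3646 and 3022 in +N. The groups overlapped in both genes, whose log2 fold changes were 0.04 (unadjusted p = 0.901) and -0.19 (unadjusted p = 0.686).

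*GLN2*, for the plastid form, had intensities of 122 and 389 in −N and of 486 and 405 in +N. As in *OsAMT1;2*, the −N array of replicate 1 was far below the rest, and the ratio of +N to −N was 3.99 in replicate 1 but 1.04 in replicate 2 (log2 fold change 1.03, unadjusted p = 0.212 in limma). *GDH2* (a glutamate dehydrogenase) had 328 and 439 in −N and 628 and 803 in +N. Its ratios of 1.91 and 1.83 were alike in the replicates and below the 2-fold cutoff (log2 fold change 0.90, unadjusted p = 0.0310 in limma). This was read from the brightest of 3 probe sets. The next one had 101 and 150 in −N and 114 and 224 in +N, with overlapping groups and unlike ratios of 1.13 and 1.49 (log2 fold change 0.38, unadjusted p = 0.462), and the dimmest had a log2 fold change of -0.06. *GLN2* and *GDH2* were the 2 of the 9 genes that were separated with +N above, against 9.23% of all genes.

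Of 5 genes listed as regulators of ammonium transport, 1 was measured. This was *CIPK23*, a kinase gene whose Arabidopsis counterpart inhibits AMT1 transporters, with intensities of 1130 and 1473 in −N and of 977 and 1277 in +N. It was at 0.864 and 0.867 of −N in the replicates, and the groups overlapped (log2 fold change -0.21 ± 0.25, unadjusted p = 0.461 in limma). Median centring and quantile normalization each removed the overlap, with +N below, as in 7.58% and 13.6% of all genes. On its second probe set, at 262 and 514 in −N and at 275 and 424 in +N, the groups overlapped in all of these scalings. For scale, the nitrate transporter gene *NRT2.2* had 65.9 and 263 in −N and 2116 and 1958 in +N (log2 fold change 3.95, unadjusted p = 0.0114), and the nitrate reductase gene *NIA1* had 60.5 and 159 in −N and 907 and 888 in +N (3.19, unadjusted p = 0.00764). Both were called. In both, the −N array of replicate 1 was again the lowest and the +N arrays were close together. The probe set of *NRT2.2* is of the x type, and the weaker signal for *NIA1*, from its other probe set, was not called (0.15 on the log2 scale, unadjusted p = 0.772).

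Among 2452 named genes, the patterns nearest to that of *OsAMT1;2* were those of *ABA8OX1*, *NAS2*, *NRT2.3*, *CIPK21* and *Agglutinin*. The measure was the distance between the 4 log2 values of 2 genes, each value taken minus the mean of its gene, and it was between 0.11 and 0.61. *ABA8OX1*, an abscisic acid hydroxylase gene, was nearest, with intensities of 89.9 and 235 in −N and of 492 and 433 in +N. Its log2 fold change was 1.67 ± 0.56 (SE, unadjusted p = 0.0501 in limma). *NRT2.3*, a nitrate transporter gene read by a probe set of the x type, had 314 and 1169 in −N and 2151 and 2053 in +N. None of these 5 genes was called, with unadjusted p from 0.0501 to 0.0858 in limma. Nearest to *AMT1-1* were *NCL1*, *OsPSY1*, *OsSSI2*, *OsRac7* and *HOS66*, at distances between 0.07 and 0.16. Over 4 arrays this likeness is a description only.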

How the data were processed

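The authors deposited 1 table of probe set intensities, linear in scale, from biotinylated cRNA of 4 arrays. GCOS and RMA appear in the submitters' notes, with no version or role, and how the table was normalized is not stated in the sources. Of its 57381 probe sets 187 controls were dropped. Intensities under 5.16 (the 5th percentile) were raised to that floor, which touched none of the 10 AMT probe sets, and log2 values of 57194 probe sets were fitted in limma 3.58.1 (R 4.3.3) with a term for group alone. Benjamini-Hochberg adjustment covered all probe sets. Each gene was read from its brightest probe set by mean log2 value. The platform annotation linked 22436 probe sets to 1 gene, 95 to several and 34663 to none, and the RefSeq gene table of ASM3414082v1 served for names and neighbours only. Sequences and coordinates are not given. The number of arrays limits precision.

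The members and lists were chosen with earlier results of these data known. Named are all 8 AMT genes, list genes that were called, *GLN1-1*, *GLN1-2*, *GLN2*, *NRT2.2*, *NIA1* and the 5 nearest patterns to *OsAMT1;2* and *AMT1-1*. *NADH-GOGAT1* belonged to this rule but was not matched. *GDH2*, *CIPK23* and the marker genes were named after their values were seen. The fit was tested on simulated data in which the arrays varied independently and shared a scale. That test does not cover the scale difference and shared deviations of the replicates here. Alternatives changed the scaling, the dim filter (40th percentile), the floor (an offset of 16 instead), the variance model, the cutoffs, the probe set rule, a block for the replicate number, or left out an array. Plots were made with matplotlib 3.10.9.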

Additional observations from a re-analysis of the deposited data

How the results depend on the processing

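Of 13 alternatives, 6 called *OsAMT1;2*. These were median centring (1.67), quantile normalization (1.59), dim probe sets left out (1.65), trend and robust moderation (1.65), the replicate block with median centring (1.67) and the fit without the −N array of replicate 2. The block fit with centring gave unadjusted p = 0.0104 in limma and called 1.4% of all genes higher. The log2 fold change was above 0 in all 13, which adds little to the main fit. The dim filter, the variance model, the block alone and the probe set rule cannot change this estimate. Leaving out 1 array cannot reverse its sign, as both +N arrays lay above both −N arrays. With the replicate block alone *OsAMT1;2* was at 1.65 (unadjusted p = 0.0785 in limma) and not called. *AMT2-1*, at 0.45, then had the only unadjusted p under 0.05 of the family (0.0490). With block and centring *AMT2-1* was at 0.47 (unadjusted p = 0.0322) and *AMT2-3* at 0.95 (unadjusted p = 0.00830), each under 2-fold. All others except *OsAMT1;2* had an unadjusted p of 0.215 or more. The shares of all genes with such a p were not computed. Same-numbered arrays deviated together (correlation 0.56), but no label ties a number to a shared culture or day. Leaving out 1 array gave 0.88 to 2.42 for *OsAMT1;2*, -0.61 to 0.73 for *AMT1-1*, 0.28 to 0.62 for *AMT2-1*, -0.98 to 0.49 for *AMT2-2* (0.49 without the −N array of replicate 2, 0.40 without the +N array of replicate 1), 0.23 to 1.64 for *AMT2-3*, -0.50 to 0.29 for *AMT3-1*, -1.10 to 0.52 for *AMT3-2* and -0.37 to 0.74 for *AMT3-3*. In those fits the arrays left over are unbalanced in scale, and the median of all genes lay between -0.23 and 0.28. The lone array of a group was assumed to vary like the other group. The mean of both probe sets turned *AMT3-1* to 0.017.

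The number of AMT genes called higher was 1 in each of the 5 fits with all arrays named above and 0 to 1 with an array left out, the gene being *AMT2-3* without the +N array of replicate 1. Of the assimilation genes 1 was called after median centring (*GLN2*), in a fit that called 1.37% of all genes higher. Their count also changed without the −N array of replicate 2, where the log2 fold change was 1.87 for *GLN2* and 1.11 for *GDH2*. With all arrays and a 1.5-fold cutoff, 1 assimilation gene was called (*GDH2*). The share of all genes at that cutoff was not computed. Over all probe sets 266 were higher and 8 lower. The higher count was 171 with the ordinary linear model, 517 and 110 at cutoffs of 1.5-fold and 3-fold, 0 after adjustment in limma (against 694 of either direction with an unadjusted p under 0.05) and 159 to 543 with an array left out. The lower count was 35 after median centring, 14 after quantile normalization, 16 without dim probe sets, 3 with the offset, 0 with the ordinary linear model, 15 with the replicate block, 39 with block and centring, 56 and 0 at the cutoffs, 0 after adjustment and 5 to 413 with an array left out. The causes were not tested. The ratio of *OsAMT1;2* to the 7 other genes, like that to *AMT1-1* added after the data were seen, differed by 1.08 to 1.93 (log2) with an array left out.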
